A study of Rattus norvegicus with 8 samples.

Results

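The protein genes of the cytosolic ribosome were followed in primary smooth muscle cells of the rat pulmonary artery over 4 h of exposure to S-nitrosoglutathione (GSNO), a compound that releases nitric oxide. The members were chosen by symbol alone: every probe set (a group of short probes for 1 transcript) whose annotation gave a single symbol starting with Rpl or Rps and a digit, or Rplp0, Rplp1, Rplp2 or Rpsa, without the S6 kinases. The rule found 63 probe sets of 8740, which stand for 43 genes, 29 of the large and 14 of the small subunit. For the 17 genes with several probe sets, the probe set with the highest mean signal over the 8 arrays was used. Rpl19l4, Rpl36al1, Rpl3l and Rps27l are paralogues or copies with their own symbols, and the symbols of Rps2-ps1 and Rps4x-ps9 are those of pseudogenes. A signal filter was passed by 42 of the 43, all but Rps2-ps1. Another 40 ribosomal probe sets carried several symbols and are no members. Of the ribosomal protein genes, 24 were represented by such shared probe sets alone, Rps2, Rps14, Rps19, Rps4x, Rplp2 and Rpl10a among them.

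The study hybridised RNA to 8 Affymetrix arrays of the rat U34 family, set A, 2 in each of 4 groups: untreated cells, and cells given GSNO for 1, 2 or 4 h. The cells of all groups were grown out of arteries of adult Sprague-Dawley rats from which endothelium and adventitia had been removed. The sources disagree on the concentration, 100 μmol/L in the series design and 100 mmol/L in the treatment protocol. The control has no stated time, so time in culture and GSNO cannot be told apart. The series design speaks of independent cell preparations without tying them to the array numbers 1 and 2, and where arrays of a group shared a preparation, p-values measure only the spread between arrays. The arrays numbered 1 and those numbered 2 were scanned on 2 different days, with different fluidics settings and chip lots. Within number 1, control and 2 h share a recorded experiment and 1 h and 4 h another, and the 1 h array has a chip lot of its own. Between arrays numbered 1, the recorded experiment and GSNO at 1 h or 4 h against control therefore cannot be told apart.

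The ribosome reads messenger RNA in its small subunit and joins amino acids in its large subunit. Its proteins are made in matched amounts, and their messengers are among the most abundant of a growing cell. In mammals most of them start with a run of pyrimidines, the 5′ terminal oligopyrimidine (TOP) motif, through which growth signals by way of mTOR set how much of the messenger is translated. Cells can therefore change the output of these genes with little change in the amount of messenger, and only the amount was measured here.

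This shared start was looked for in the promoter windows of RefSeq (build GRCr8), which hold 250 bases before and 50 after each annotated start. Of the 43 genes, 37 had an entry, 36 by gene ID and 1, Rps9, by symbol. An unbroken run of at least 5 C or T bases reaching within 5 bases of the start was found in 22 of the 37, or 59.5%, against 29.1% of all 27457 promoters. Runs of 10 or more bases were found in 16 members, 43.2%, against 4.56% of all promoters. The windows below run from 15 bases before to 15 bases after the annotated start on the transcribed strand, with the run in capitals. The first 5 were chosen from the 22 with a run for values given below, and the last 3 from the 15 without one. The values of these 3 are given below too, so the choice is no even sample of either kind.
Rpl35, chr3:43165907-43165936, minus strand: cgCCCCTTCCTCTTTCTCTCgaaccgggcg
Rps24, chr16:96502-96531, plus strand: tgagcggTCCTCTTTTCCTCCTTTacagct
Rpl22, chr5:168117946-168117975, plus strand: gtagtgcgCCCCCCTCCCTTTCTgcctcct
Rplp0, chr12:46718376-46718405, minus strand: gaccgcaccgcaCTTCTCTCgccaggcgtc
Rpl31, chr9:49143096-49143125, plus strand: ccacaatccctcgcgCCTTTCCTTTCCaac
Rps6, chr5:106420526-106420555, minus strand: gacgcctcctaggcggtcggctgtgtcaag
Rpl21, chr12:13386139-13386168, minus strand: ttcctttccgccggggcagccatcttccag
Rpl3l, chr10:14258431-14258460, plus strand: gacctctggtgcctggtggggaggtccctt
The run in Rpl35 is 18 bases long, that in Rps24 17 bases and that in Rplp0 8 bases. Rps6 and Rpl21 are known TOP genes. A window without capitals says only that no such run reaches within 5 bases of the start annotated here. Stretches of C or T farther off, such as the one that opens the Rpl21 window, were neither counted nor marked. The motif CCGGAAG, on either strand, stood in 24.3% of the members' windows of 300 bases and in 9.22% of all promoters. AAGATGG stood in 21.6% and 7.30%, and TATAAA in 10.8% and 14.3%. No overlap with another motif was removed, and a match is a description of the letters.

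The deposited values are signals on a linear scale. Their trimmed mean was 500.7 to 501.0 on every array, so each value is relative to its array and an equal change of all RNA would not show. Signals are arbitrary units, differ in gain between probe sets and do not order transcripts. In 36 members the mean signal over the arrays lay between 3087 and 22245. The highest signal of each array belonged to a member: Rpl3 or Rps29 on the arrays numbered 1, and Rpl19, Rps29 or Rplp0 on those numbered 2. Between 18 and 21 of the 43 chosen probe sets lay above the 99th percentile of their array, which was 9213 to 15901. The other 7 members had mean signals of 37.8 to 717: Rpl17, Rpl19l4, Rpl30, Rpl3l, Rpl5, Rps24 and Rps2-ps1. Rpl5, Rpl17, Rpl30 and Rps24 were also covered by shared probe sets with much higher signals. Smooth muscle markers were read from the same arrays: 6 of the 7 represented stood above the 40th percentile on both control arrays, Des (desmin) not, and their summed signal ran from 34944 to 61247 over the 8 arrays. Of the endothelial markers 2 of 6 did, with a summed signal of 346 to 693, and of the fibroblast and adventitia markers 7 of 7, with 22300.3 to 36233. The part of other cells in the values below was not tested. In such samples fewer cells of a type and less RNA per cell cannot be told apart.

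**Figure D1:**
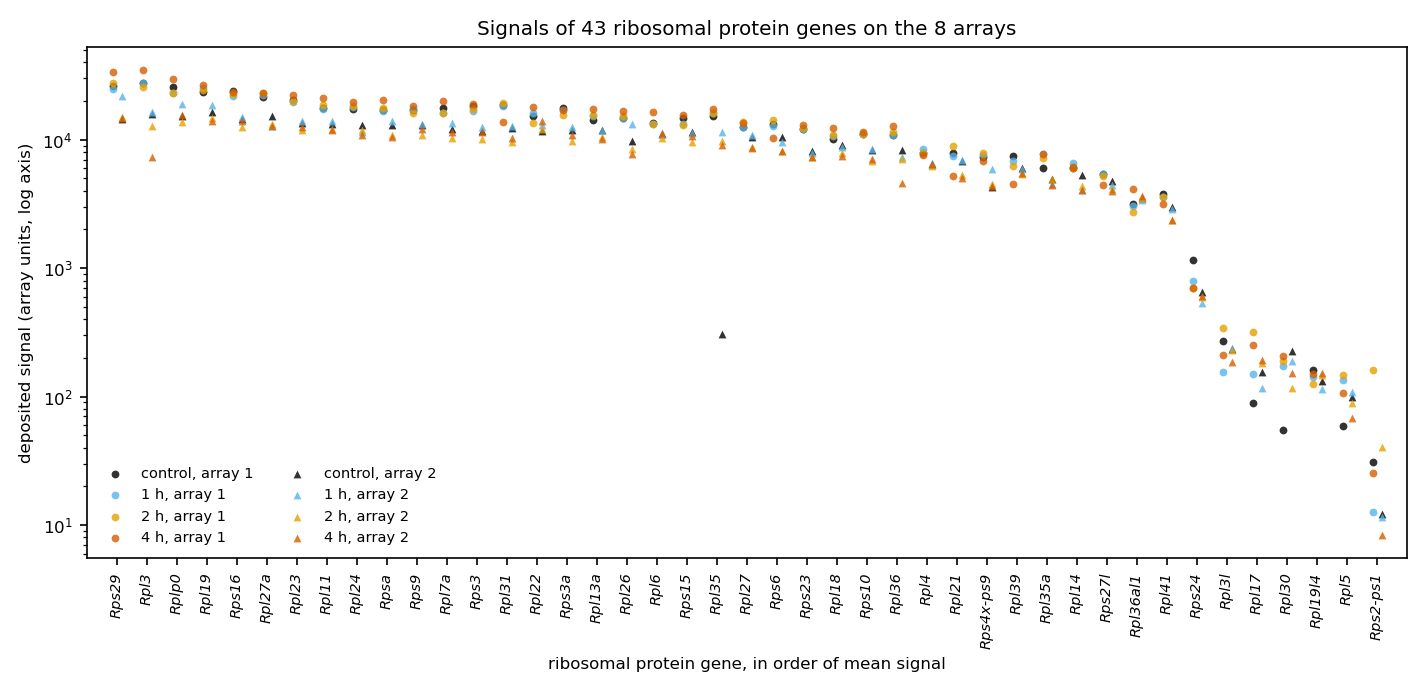
Deposited signal (vertical log axis, array units) of each of the 43 genes (horizontal axis, in order of mean signal) on the 8 arrays; circles are arrays numbered 1, triangles arrays numbered 2, and colours the groups. The 36 genes on the left lie at 2374 or more with triangles mostly under circles, but for a single triangle of Rpl35 at 309, the control array numbered 2.

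These genes differed more between the array numbers than between GSNO and control. Averaged over the 4 groups, 40 of the 42 kept members were lower on arrays numbered 2, with a median log2 difference of -0.52 against 0.06 over all 5877 kept probe sets. By limma with the array number as a term, 29 of 42 were called lower at an adjusted p under 0.05 and 0 higher, where 8.42% of all kept probe sets were called lower and 13.3% higher. Rplp0, the base of the ribosomal stalk, differed by -0.68 (limma adjusted p = 0.00384) and Rpl23 by -0.67 (limma adjusted p = 0.00218). The members took 7.76% to 8.14% of all signal on the arrays numbered 1 and 5.56% to 6.35% on those numbered 2. The top of the scale differed as well. The 99th percentile was 13732 to 15901 on the first and 9213 to 11023 on the second, and CreX, a bacteriophage transcript added to each hybridisation at a fixed amount, read 11786 to 13184 and 3305 to 4100. Among 394 other probe sets with a mean signal of at least 3087, some of them unnamed, 73.1% were lower on arrays numbered 2 with a median of -0.24. The part of scan, lot and cell preparation in this difference cannot be told apart.

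Against this background each time of exposure was compared with control on log2(signal + 21.1), a scale that understates the differences of weak probe sets. All 4 groups entered a single limma fit. The same fit with the array number as a term leaves every fold change as it is and changes only its error, and its 95% intervals are quoted below as blocked intervals. The question was whether these genes moved, together or singly, in the first hours of GSNO.

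At 1 h the ribosomal protein genes were close to their values in untreated cells. Of the 42, 35 (83.3%) had log2 fold changes within ±0.25, as had 63.5% of all kept probe sets. Of the 394 other probe sets with a mean signal of at least 3087, 82.0% had. The median of the members was 0.01 (-0.04 after quantile normalization), against -0.05 over all and -0.01 over the 394. No member was called: limma gave 0 of 42 at an adjusted p under 0.05, where 0.527% of all kept probe sets were called. At an unadjusted p under 0.05 it gave 0 of 42, and 133 higher and 44 lower of all 5877. With the array number as a term limma also called 0, where 1.34% of all were called. In that fit 1 member, Rpl35, was higher at an unadjusted p under 0.05, where 217 of all 5877 were higher and 120 lower. The 42 split evenly over the arrays: 10 were higher on both than on the control array of the same number (21.3% of all kept probe sets were) and 10 were lower on both (31.4%). Higher on the first number only were 8 (20.6% of all) and higher on the second only 14 (26.7%). The blocked intervals of 38 of the 42 lay within ±1, a change of 2-fold, and of 29 within ±0.5.

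At 2 h the members lay slightly under control with a median of -0.08, against -0.06 over all kept probe sets. The log2 fold changes of 37 of 42 (88.1%) were within ±0.25, as were 53.5% of all and 73.6% of the 394 other bright probe sets. Limma called 0 of 42, where 0.97% of all were called. At an unadjusted p under 0.05, 1 member (Rpl17) was higher, where 213 of all 5877 were higher and 147 lower. In the fit with the array number as a term 0 were called, where 3.16% of all were. There 2, Rpl17 and Rpl35, were higher at an unadjusted p under 0.05, where 332 of all 5877 were higher and 380 lower. Below 0 were 34 of the 42, as after scaling to a common median, where the members' median was -0.14. After quantile normalization 24 of the 42 were. The share of all kept probe sets below 0 was not counted. Between arrays numbered 1 the median was 0.02 and between arrays numbered 2 it was -0.20. On both numbers 16 members were lower (34.7% of all kept probe sets were) and 4 higher (24.3%). Higher on the first number and lower on the second were 19 (45.2% against 23.2% of all), and 3 showed the opposite (17.7%).

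At 4 h, when the array as a whole had moved most, the ribosomal protein genes again showed no called change. Limma called 0 of 42, where 1.53% of all kept probe sets were called. At an unadjusted p under 0.05 it gave 0 of 42, and 312 higher and 342 lower of all 5877. In the fit with the array number as a term 0 were called, where 7.93% of all were. There Rpl17 and Rpl35 were higher and Rpl21, Rpl39 and Rps6 lower at an unadjusted p under 0.05. Of all 5877, 517 were higher and 727 lower at that limit. The median of the members was -0.03 and that of all kept probe sets -0.16. Scaling every array to a common median moved the latter to 0.04 and the former to 0.19. Both signs thus depend on the scaling. The members' median minus that of all was 0.13 as deposited, 0.15 after scaling to a common median and 0.02 after quantile normalization. As deposited, the 394 other bright probe sets had a median of -0.005, slightly above that of the members. Within ±0.25 lay 29 of 42 members (69.0%), 39.5% of all and 57.6% of the 394 other bright probe sets. The blocked intervals of 38 of 42 (90.5%) lay within ±1, as did those of 49.5% of all, and those of 22 lay within ±0.5.

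The 2 array numbers differed at this time. Between arrays numbered 1 the median of the members at 4 h was 0.11 and between arrays numbered 2 it was -0.16, while over all kept probe sets the medians were -0.22 and -0.08. Higher on the first and lower on the second were 22 of 42 members (52.4%), a pattern shown by 14.3% of all kept probe sets and by 24.4% of the 394 other bright ones. The opposite was seen in 3 members (21.9% of all). Higher on both were 7 (20.9% of all) and lower on both 10 (42.8% of all). Whether this rests on the cells or on the arrays was not tested. Without the 4 h array numbered 1 the median at 4 h was -0.39 and without the one numbered 2 it was 0.37.

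**Figure D2:**
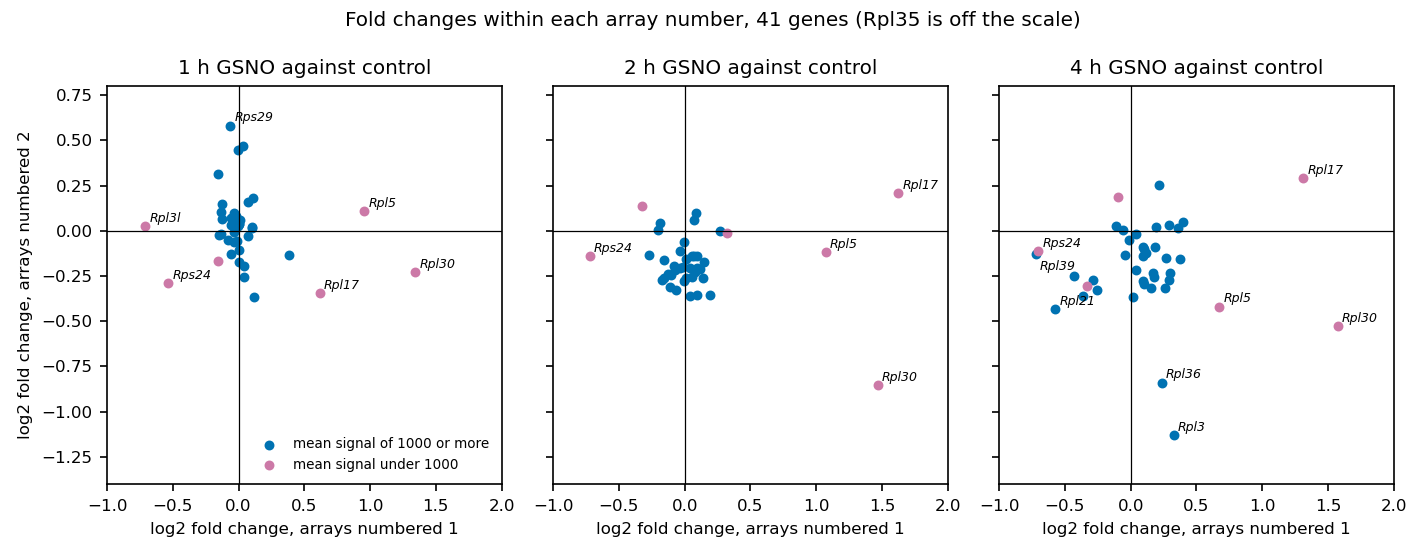
Log2 fold change between arrays numbered 2 (vertical axis) against that between arrays numbered 1 (horizontal axis) at 1, 2 and 4 h for 41 kept genes; blue points have a mean signal of 1000 or more and pink points less. At 4 h most blue points lie in the lower right, higher on the first and lower on the second, and the pink points of Rpl30 and Rpl17 lie far to the right.

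Set against 1 h, the 4 h arrays gave a median of -0.03 for the members and -0.13 for all kept probe sets, which after scaling to a common median were 0.16 and 0.06. Above 0 were 15 of the 42 members, 31 after that scaling and 19 after quantile normalization. The share of all kept probe sets above 0 was not counted. Limma called 0 of 42 (0.476% of all were called). At an unadjusted p under 0.05 it gave 0 of 42, and 253 higher and 278 lower of all 5877. With the array number as a term 0 were called (5.1% of all). There 1 member was lower at an unadjusted p under 0.05, where 597 of all 5877 were lower and 461 higher. The array numbers parted here too: 25 of 42 were higher on the first and lower on the second (16.1% of all).

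**Figure D3:**
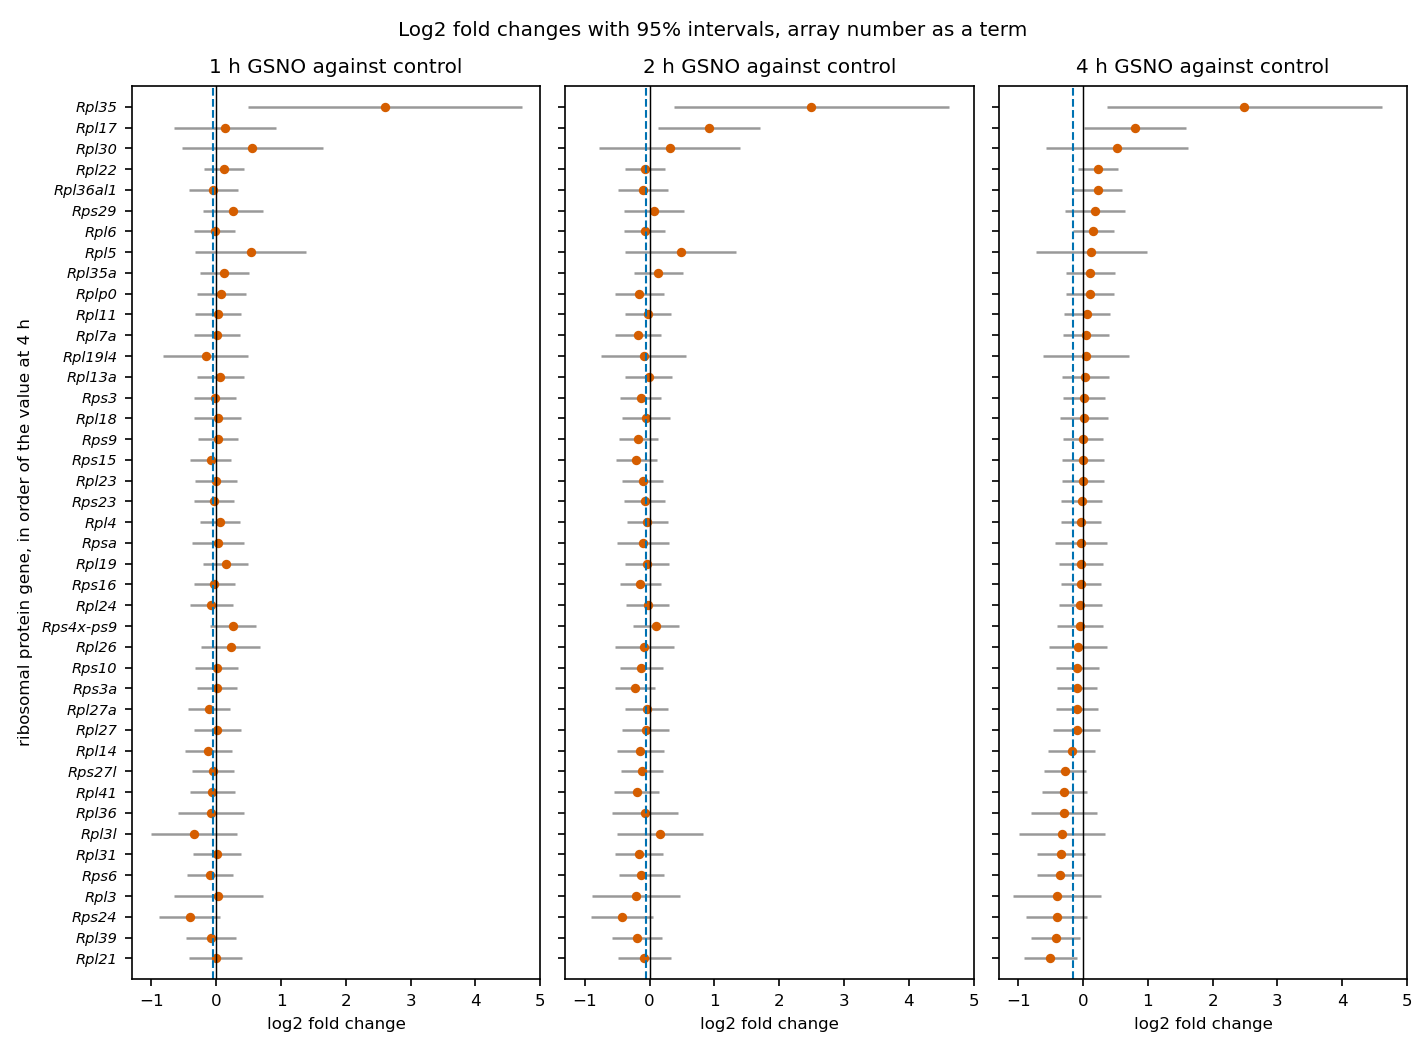
Log2 fold changes (horizontal axis, points) with 95% intervals from the fit with the array number as a term (grey lines) for the 42 kept genes, in order of the value at 4 h; the solid line is 0 and the dashed line the median of all 5877 kept probe sets. Most points lie within ±0.25 at each time, and Rpl35 stands apart at 2.61, 2.50 and 2.49 with wide intervals.

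Among the large subunit proteins that shape the catalytic core and the exit tunnel, Rpl4, which lines the tunnel, was among the steadiest. Its signals were 7859 in control and 8438, 7817 and 7551 at 1, 2 and 4 h on the arrays numbered 1, and 6479.6, 6544, 6214 and 6488 on those numbered 2. All values of the first number lay above all of the second, and the groups overlapped. Its log2 fold changes were 0.06, -0.03 and -0.03, with a blocked interval of -0.34 to 0.28 at 4 h.

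Rpl3, which reaches into the peptidyl transferase centre, read 27639, 27798, 25597 and 34714 on the arrays numbered 1 and 15890.1, 16535, 12792 and 7263 on those numbered 2, in the order control, 1, 2 and 4 h. The 4 h array was the highest of the first number and the lowest of the second. The log2 fold change at 4 h was therefore -0.40, from 0.33 and -1.13 (limma adjusted p = 0.89). A second Rpl3 probe set read 10335 in control and 9192 at 4 h on the arrays numbered 2 and gave a log2 fold change of 0.00 over both numbers. Without the 4 h array numbered 2 the value of the first probe set was 0.73.

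Rplp0 read 25905, 23219.8, 23224 and 29649 on the arrays numbered 1 and 15365, 19069, 13714 and 15571 on those numbered 2. At 2 h it was lower on both and at 4 h higher on both, with log2 fold changes of -0.16 and 0.11, neither of which passed the test. Rpl23, known to bind Mdm2 outside the ribosome, had a log2 fold change at 4 h of 0.00 with a blocked interval of -0.32 to 0.32. Rpl11, which binds Mdm2 together with Rpl5, read 17561 in control and 21132 at 4 h on the first number and 13262 and 11932 on the second. Its log2 fold change was 0.06 with a blocked interval of -0.30 to 0.41. Rpl13a, which leaves the ribosome to silence inflammatory messengers in myeloid cells, had 0.03 at 4 h, from 0.30 and -0.23.

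Rpl22, a binder of small viral and cellular RNAs that cells can do without, had the highest log2 fold change at 4 h of the well measured members, leaving out Rpl35. It read 15369 in control and 17833 at 4 h on the arrays numbered 1, and 11735 and 13991 on those numbered 2. Both 4 h arrays were the highest of their number. The log2 fold change was 0.23 with a blocked interval of -0.07 to 0.54 (limma with the array number, adjusted p = 0.363), and 0.45 after scaling to a common median. Rpl36al1, a copy of Rpl36a, had 0.22, from 0.40 and 0.05.

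In the small subunit, Rps3, which sits where messenger RNA enters, read 18321, 16706, 17283 and 18857 on the arrays numbered 1 and 11582, 12436, 10109 and 11455 on those numbered 2. The groups overlapped, and its log2 fold change at 4 h was 0.01 with a blocked interval of -0.31 to 0.34. Rpsa, also known as the laminin receptor precursor, had -0.03 at 4 h, from 0.26 and -0.32. Rps3a, which lies beside the initiation factor platform, was lowest at 2 h with -0.22 and a blocked interval of -0.53 to 0.09.

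Rps6 is the substrate of the S6 kinases and a marker of mTOR activity through its phosphorylation, which arrays do not see. Its messenger read 13295, 12796, 14226 and 10353 on the arrays numbered 1 and 10524, 9608, 8225 and 8178 on those numbered 2. The 4 h array was the lowest of each number, though at 2 h on the second it was nearly as low. The log2 fold change at 4 h was -0.36 on each number, with a blocked interval of -0.71 to -0.01 (limma with the array number, adjusted p = 0.228), and it was -0.14 after scaling to a common median. The second Rps6 probe set gave -0.19, from -0.03 and -0.35.

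A few well measured members lay lower at 4 h, none past the test. The lower quartile at 4 h was -0.12 over the 36 with a mean signal of 1000 or more and -0.45 over all kept probe sets. Values of -0.25 or less were thus common on the array as a whole. Of the 36, 8 had log2 fold changes at 4 h of -0.25 or less, listed here after their values were seen: Rpl21, Rpl39, Rpl3, Rps6, Rpl31, Rpl36, Rpl41 and Rps27l. In Rpl3 and Rpl36 the arrays disagreed, and in the other 6 both 4 h arrays were lower than their controls. Rpl21 had the lowest value. It read 7804, 7516, 8912 and 5231 on the arrays numbered 1 and 6844, 7003, 5353 and 5069 on those numbered 2. The 4 h array was the lowest of each number. Its log2 fold change of -0.50 had a blocked interval of -0.92 to -0.09 (limma with the array number, adjusted p = 0.154; without it, adjusted p = 0.586) and was -0.28 after scaling to a common median. Another Rpl21 probe set, with signals of 4782 to 7036, gave -0.17, from -0.37 and 0.04. The weakest Rpl21 probe sets, with mean signals of 356 and 123, gave -0.05 and 0.04.

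Rpl39, the small protein at the end of the exit tunnel, read 7526, 6856, 6245 and 4552 on the arrays numbered 1 and 5972, 5906, 5433 and 5467 on those numbered 2. Every GSNO array lay under its control, and the 4 h value of -0.42 came from -0.72 and -0.13 (limma with the array number, adjusted p = 0.195). Rpl31 was at -0.34, from -0.43 and -0.25. Rpl41, among the shortest proteins known, gave -0.29, from -0.25 and -0.33. Rps27l, a paralogue of Rps27 that p53 induces in other cells, gave -0.28, from -0.28 and -0.27. After scaling to a common median the 4 h values of Rpl31, Rpl41 and Rps27l were -0.12, -0.07 and -0.06. Lower than the control of the same number on all 6 GSNO arrays were 4 members, Rpl39, Rpl41, Rps24 and Rps27l, and higher on all 6 was 1, Rpl35. Of all kept probe sets 12.7% and 6.91% showed these patterns.

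Rpl35, which sits at the mouth of the exit tunnel, gave the highest fold change of the members, and it rests on 1 array. Its chosen probe set read 15203, 16017, 16233 and 17257 on the arrays numbered 1, and 309 in control and 11570.0, 9809 and 9157 with GSNO on those numbered 2. The control array numbered 2 alone was low. The log2 fold changes at 1, 2 and 4 h were 0.08, 0.09 and 0.18 on the first number and 5.14, 4.90 and 4.80 on the second, and 2.61, 2.50 and 2.49 over both (limma adjusted p at 4 h = 0.589, with the array number 0.17). A second Rpl35 probe set from the same source sequence read 8374, 8725, 7209.5 and 6437 on the arrays numbered 2 and was not low in control. It gave 0.06, -0.05 and 0.02. Without the control array numbered 1, Rpl35 was the only member called, at 5.37, 5.26 and 5.25, and without the control array numbered 2 it was -0.16, -0.27 and -0.27.

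**Figure D4:**
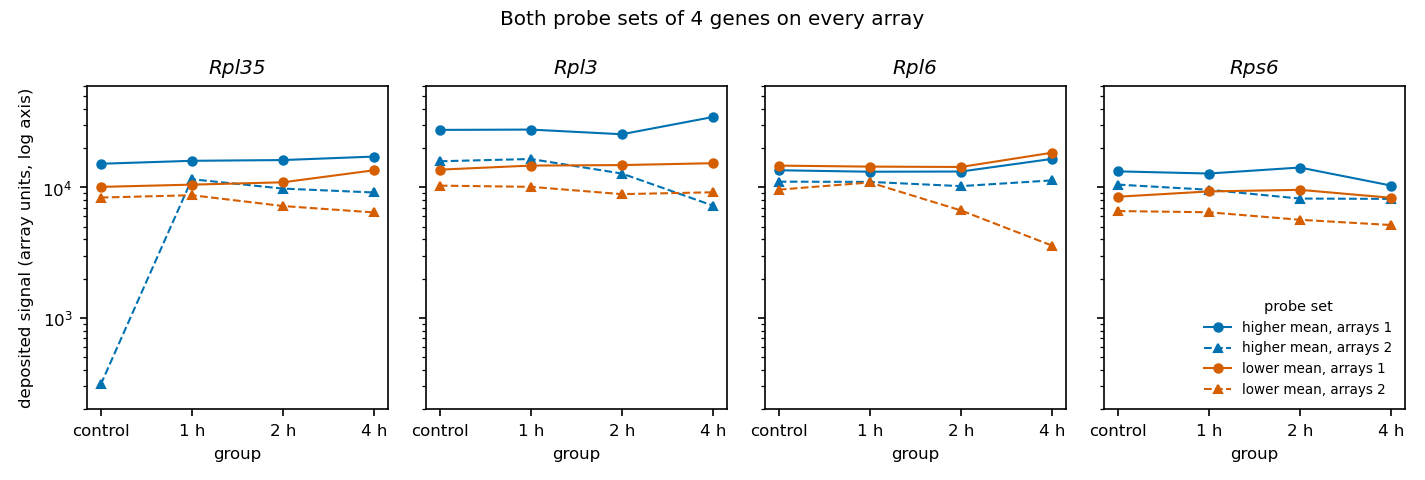
Deposited signal (vertical log axis, array units) by group (horizontal axis) for the 2 probe sets each of Rpl35, Rpl3, Rpl6 and Rps6; blue is the probe set with the higher mean, orange the other, solid lines with circles are arrays numbered 1 and dashed lines with triangles arrays numbered 2. Single arrays leave their own line in 1 probe set and not in the other: the control of Rpl35 at 309, and the 4 h arrays of Rpl3 at 7263 and of Rpl6 at 3586.

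Probe sets of a gene mostly gave fold changes close to each other. As most fold changes lay near 0, this does not show a shared direction. At 4 h, for example, the 2 probe sets of Rps29 gave 0.19 and -0.16. Over the 17 genes with several, the log2 fold changes of a gene's probe sets differed by under 0.25 in 12, 12 and 10 genes at the 3 times in turn, and by over 1 in 1, 3 and 1. Rpl35 was past 1 at each time, with Rpl3l and Rps2-ps1 beside it at 2 h. Rpl6, a large subunit protein, showed the same kind of split. Its chosen probe set read 11085 in control and 11334 at 4 h on the arrays numbered 2, and its other probe set 9626 and 3586.

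The weak members gave the widest values. Rpl17, a protein at the tunnel exit, had a probe set that read 89.4, 148, 319.8 and 254 on the arrays numbered 1 and 155, 118, 182 and 194 on those numbered 2. Its log2 fold change at 2 h was 0.92 with a blocked interval of 0.13 to 1.70. Limma without the array number gave an adjusted p of 0.775. In limma with the array number no member had an adjusted p under 0.30 at 2 h. On the shared probe sets named for Rpl17 and its copies, signals were between 5188 and 16404 and the fold changes at 2 h were -0.14 and -0.16. Rpl30 read 54.9 in control on the first number and 227 on the second, and its 0.52 at 4 h came from 1.57 and -0.53. Its value was -0.33 without the control array numbered 1. The probe set shared by Rpl30 and its copies gave -0.35 at 4 h. Rpl5, the carrier of the small ribosomal RNA of the large subunit, had 0.13 at 4 h on a probe set of 59.4 to 148, and the probe set it shares with Rpl5l1 gave -0.07.

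Rps24, mutated in some cases of Diamond-Blackfan anaemia, read 1160.2, 795, 694 and 704 on the arrays numbered 1 and 656, 533, 593 and 604 on those numbered 2. Control was the highest array of each number. The log2 fold changes were -0.41, -0.43 and -0.41, with a blocked interval at 2 h of -0.91 to 0.04 (limma with the array number, adjusted p = 0.476). The probe set it shares with Rps24-ps15 gave -0.12, -0.15 and -0.09. Rpl3l, the paralogue of Rpl3 made in heart and skeletal muscle, read 156 to 341 over the 8 arrays and gave -0.34, 0.16 and -0.32. Rpl19l4 read 115 to 162, with -0.16 at 1 h.

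The shared ribosomal probe sets, which the members leave out, gave the same picture on other probes of the same arrays. Of 38 whose symbols were all ribosomal protein genes, their copies or unnamed loci, 37 passed the filter. Limma with and without the array number called 0 of them at any time, with 0 at an unadjusted p under 0.05. The shares and counts over all kept probe sets are those given above for each time. The medians of the 37 were -0.02, -0.08 and -0.03 at 1, 2 and 4 h. At 4 h 24 of 37 were higher on the arrays numbered 1 and lower on those numbered 2. Between the numbers, 33 of 37 were called lower on the second. Among genes with no probe set of their own, Rps19, the gene most often mutated in Diamond-Blackfan anaemia, was higher on both 4 h arrays at 0.20, and Rps14 was at -0.25, from 0.02 and -0.52. Rps2 was at 0.04, Rps4x at -0.06 and 0.02 on its 2 shared probe sets, Rplp2 at -0.06 and Rpl10a at -0.15. These probe sets cannot part a gene from its processed copies.

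Split by subunit, the 29 large subunit members had medians of 0.02, -0.07 and 0.00 at 1, 2 and 4 h, and the 13 kept small subunit members -0.02, -0.13 and -0.03. Split by the run of pyrimidines at the annotated start, the 22 members with a run had medians of 0.02, -0.09 and -0.02 and the 15 kept members without one -0.02, -0.10 and -0.03.

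The genes that make or use ribosomes were read from lists. In these lists limma called 0 at any time, with and without the array number. At an unadjusted p under 0.05 at 4 h, limma without the array number gave Gnl3, Mrpl13 and Mrps6, all lower. Limma with it also gave Eef1a1, Naca, Eif2s1, Polr1d and Mrps14, lower, and Eif3d, higher. Of all 5877 kept probe sets, 312 were higher and 342 lower at that limit without the array number, and 517 and 727 with it. Of other genes with TOP messengers, 8 were kept. Their median at 4 h was -0.14, 0.07 after scaling to a common median and -0.12 after quantile normalization. Eef1a1, the elongation factor that brings transfer RNA, was at -0.51 (limma with the array number, unadjusted p = 0.0116 and adjusted p = 0.106). In control and at 4 h it read 9366 and 6239 on the first number and 6809 and 5006 on the second. Eef2, the translocase, was at 0.07. Between the array numbers 4 of these 8 were called lower on the second. Of the initiation factors 14 were kept, with a median at 4 h of -0.03. It was 0.18 after scaling to a common median and -0.07 after quantile normalization. Eif2s1, the alpha subunit of eIF2 that stress kinases phosphorylate, was at -0.48, and Eif3d at 0.47. The 14 mitochondrial ribosomal proteins had a median of -0.20 at 4 h. It was 0.0025 after scaling to a common median and -0.06 after quantile normalization.

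The genes of ribosome assembly and RNA polymerase I had the lowest median at 4 h of these lists, also after scaling to a common median (-0.23) and after quantile normalization (-0.39). Of 12 on the array 11 were kept. Their medians were -0.16, -0.20 and -0.44 at 1, 2 and 4 h, against -0.05, -0.06 and -0.16 over all kept probe sets, and at 4 h 9 of the 11 were lower on both numbers (42.8% of all). The median at 4 h was -0.61 between arrays numbered 1 and -0.18 between arrays numbered 2, and for 4 h against 1 h it was -0.62 and 0.07. Gnl3 (nucleostemin), a nucleolar GTPase, read 892, 979.9, 514 and 554 on the first number and 738, 876, 734 and 497 on the second, and its log2 fold change at 4 h was -0.61 (limma, unadjusted p = 0.048 and adjusted p = 0.441). Nop58, a core protein of the particles that methylate ribosomal RNA, was at -0.46, and Polr1d, a subunit of RNA polymerase I and III, at -0.54. Polr1b and Ubtf were higher, at 0.43 and 0.25. The 6 kept S6 kinases and linked kinases had a median at 4 h of 0.04, with 3 of 6 lower. After scaling to a common median it was 0.25 with 0 of 6 lower. After quantile normalization their median was 0.12, with 1 of 6 lower. Their values ran from -0.17 (Akt1) to 0.84 (Pdpk1), the latter on signals of 12.1 in control and 81.6 at 4 h on the second number. Rps6kb1, the kinase of Rps6, was at 0.15, from -0.25 and 0.56, and Mtor at -0.08, from -0.47 and 0.31.

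**Figure D5:**
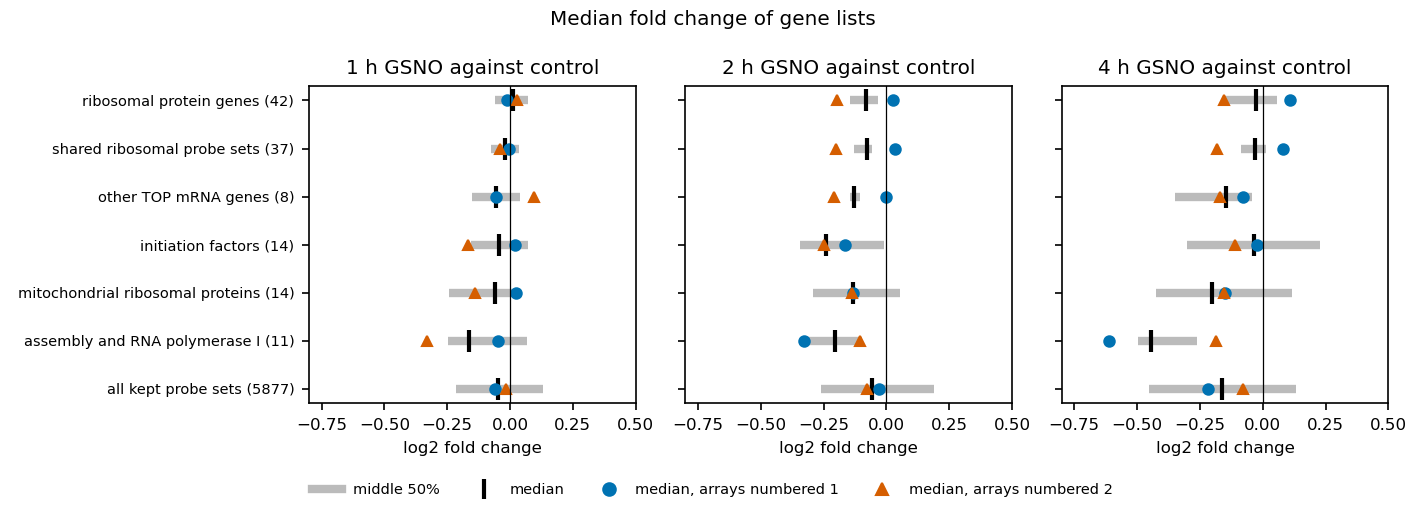
Median log2 fold change (horizontal axis) of gene lists, with the number of kept members in brackets, at 1, 2 and 4 h; black ticks are medians over both numbers, grey bars the middle 50% of the members, blue circles and orange triangles the medians between arrays numbered 1 and 2. The medians of the ribosomal protein genes over both numbers lie at 0.01, -0.08 and -0.03, and the assembly list lies at -0.44 at 4 h.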

How the data were processed

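RNA was hybridised to 8 rat U34 arrays of set A. The authors deposited 1 intensity signal per probe set, made with Affymetrix software 5.0 according to the design text. Other steps were not given in the sources used here. The other deposited records are the authors' experiment records, text fields of another kind with no measurement, read only for array, lot and scan groupings. Of 8799 probe sets 59 control features were left out, 7006 had 1 gene symbol, 308 several and 1426 none. The offset of 21.1 added before log2 is the median over arrays of the 20th percentile. Probe sets at or above the 40th percentile on at least 2 arrays were kept, 5877 in all. No 2 arrays were identical. Tests used limma 3.58.1 in R 4.3.3 (lmFit, eBayes with trend, two-sided, Benjamini-Hochberg over kept probe sets, threshold 0.05, 4 residual degrees of freedom, 3 with the array number). The limma fit, with and without the array number, was tested on simulated data, and the other steps were not. Deviations of arrays with the same number correlated at 0.387 to 0.569 in all 6 pairs of groups, over the 0.1 set for pairing, so the array number served as a block. Beside the genes that the rule on extremes, discordant probe sets and roles names, 21 in all, those named after their values were seen are the lower members at 4 h and examples of the other lists and shared probe sets. The members and lists were chosen with earlier results of these data known. The number of arrays limits the precision.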

Additional observations from a re-analysis of the deposited data

Results flagged for a closer look

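Among the 42 kept members, in 6 both arrays of a time lay on 1 side of their controls and both arrays of another time on the other side. The share of all kept probe sets that did so was not counted, so the 6 are no result about the members. The difference was not tested in any of them, and every value is a log2 fold change that did not pass the test. Rpl36al1 was at -0.047 at 1 h and at 0.22 at 4 h. Rpl3 was at 0.033 at 1 h and at -0.21 at 2 h. Rplp0 was at -0.16 at 2 h and at 0.11 at 4 h. Rpl4 was at 0.058 at 1 h and at -0.034 at 2 h, the smallest of these differences. Rpl6 was at -0.022 at 1 h and at -0.073 at 2 h, and at 0.16 at 4 h. Rps9 was at 0.022 at 1 h and at -0.17 at 2 h.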

How the results depend on the processing

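In the fit with a replicate block for the array number the count of called members was 0 in every comparison, as without it, and the medians were the same. Of the other full-data alternatives none called a member in any comparison. The median at 1 h was -0.037 after quantile normalization, with and without the block, and the median at 4 h was 0.19 after scaling to a common median, with and without the block. Leaving out 1 array at a time, the lone array of a group being assumed to vary like the others, gave 0 to 1 called members at 1, 2 and 4 h, the 1 being Rpl35 without the control array numbered 1, and 0 at 4 h against 1 h. It gave medians of -0.19 to 0.22 at 1 h, -0.39 to 0.27 at 2 h, -0.39 to 0.37 at 4 h and -0.40 to 0.32 for 4 h against 1 h. Such a fit sets groups with unequal array numbers against each other. Of 1588 values of named genes under alternatives, 1565 kept direction and call or moved by less than the arrays' spread, 20 moved further and 3, all of Rpl35, became calls. Many of these alternatives cannot move a fold change: the block, the signal filters, the fit of only the groups compared, and leaving out an array of another group. The tally is therefore no measure of robustness. The block and both scalings together were chosen after seeing the data. Signals near the 40th percentile, 57.2 to 91.0, limit the weak members.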
